A study of Danio rerio with 12 samples.

Results

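Among the regions of open chromatin in cells that carried sele:GFP without kdrl:mCherry, 30143 of 138364 (21.8%, Wilson 95% interval 21.6 to 22.0) were called in none of the other 3 sorted fractions. These GFP only regions are peaks on chromosomes 1 to 25 that share not even 1 bp with a peak of the double positive, mCherry only or double negative list. The 4 lists together held 529593 peaks on these chromosomes. Called in no other list were 7190 of 90687 double positive peaks (7.93%) and 17185 of 134260 mCherry only peaks (12.8%). For double negative these were 51181 of 166282 (30.8%). The 4 shares rank as the lengths of the lists do, and each list was set against 3 lists of other lengths. How far list length sets the order of the shares was not tested. The members were thus chosen by the peak calls themselves, so their number, height, width and gaps are descriptions and carry no test.

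The peaks come from ATAC-seq, an assay that uses the Tn5 transposase to insert sequencing adapters into accessible DNA, on cells of whole zebrafish embryos at 72 hours post fertilisation. All embryos were labelled wild-type in genotype, carried both transgenes and were untreated. About 12000 to 50000 cells were used for each library, from 4 gates: mCherry- GFP+ (GFP only), mCherry+ GFP+ (double positive), mCherry+ GFP- (mCherry only) and mCherry- GFP- (double negative), with 3 samples in each group. The labels name the same list for all 3 samples of a group. Each group is therefore 1 pooled list without a replicate check, and all intervals cover counting error only. A region absent from a list was not called there, and reads below the calling limit do not appear in a peak list.

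An accessible region is a stretch of DNA with few nucleosomes, and promoters and enhancers in use are usually found in such stretches. The kdrl gene encodes a receptor that binds vascular endothelial growth factor, and its transgene is a standard mark of blood vessel endothelium. The sele gene encodes E-selectin, a lectin by which endothelium holds circulating leukocytes. The GFP only gate holds cells in which the sele reporter was on and the kdrl reporter was off. Which cell types these were is not stated in the labels, and the loci of marker genes were not analysed here, because no annotation of the files' genome build, danRer7, was used. Regions are given by danRer7 position alone.

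Most members were low. Height stands for the reads at a summit over the genome-wide background of its own list, which was 4.26 reads for GFP only. Their median height was 4.46, with quartiles of 3.75 and 6.33, against 6.33 (4.46 and 10.6) in the 108221 GFP only peaks shared with at least 1 other list. In reads, members had a median of 19 at the summit, from 11 to 174, and shared peaks a median of 27. The fewest reads that could be called at the genome-wide background were 11 in the GFP only list, 10 in the double positive list and 11 in both others. Members lay closer to that limit. In 43.4% of members the summit had at most 1.5 times the fewest reads that pass at its own background, against 18.9% of shared peaks. The summit reached 2 times that number in 26.6% of members and in 55.9% of shared peaks. A −log10 q of 5 or more was reached by 15177 members (50.4%), below the 71.6% of all GFP only peaks.

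Tall members were a minority. Height 10 was reached by 2765 members (9.17%, 8.85 to 9.50), against 23.2% of all GFP only peaks. Height 20 was reached by 158 (0.524%, 0.449 to 0.612), against 5.58% of all. In the classes called in 1 other list alone, 325 of 7190 double positive regions (4.52%), 408 of 17185 mCherry only regions (2.37%) and 1848 of 51181 double negative regions (3.61%) reached height 10. The median heights of those classes, 4.41, 4.26 and 4.48 in the same order, were all close to that of the GFP only class. The classes thus differed in their upper tails, with 95th percentiles of 12.2 in the GFP only class, 9.91 in double positive, 8.52 in mCherry only and 9.18 in double negative. Each class was set against 3 lists of other lengths, and height is scaled to its own list. Whole lists had median heights of 5.86 (GFP only), 7.16 (double positive), 6.28 (mCherry only) and 5.82 (double negative). Their shares at height 10 were counted for GFP only alone, so how far whole lists set these tails was not tested.

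The share of GFP only peaks with no counterpart fell with height in every step. Below height 4, 11575 of 29536 peaks (39.2%) were members. From height 6 to 8 the share was 16.2%, from 10 to 15 it was 12.03%, and from 15 to 20 it was 7.72%. It was 2.71% (2.32 to 3.16) from 20 to 30, and 5 of 2076 peaks (0.241%) at 30 or more.

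**Figure D1:**
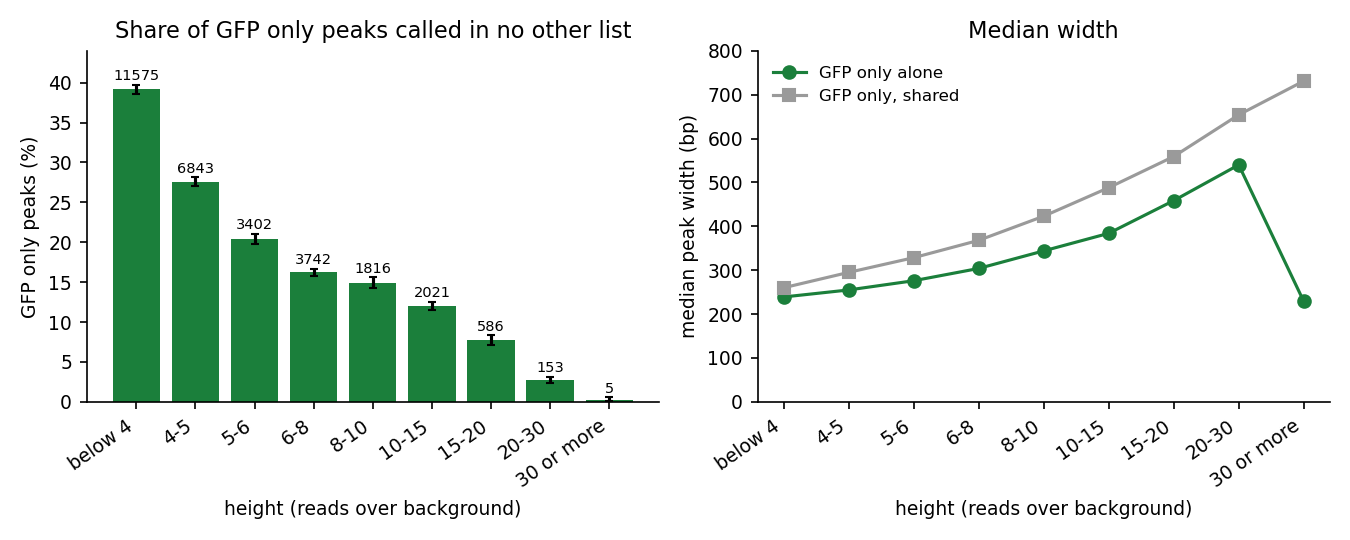
Left, share of GFP only peaks called in no other list (%, bars with Wilson 95% intervals, member numbers above) by height, the reads at the summit over the list's background. Right, median peak width in bp for GFP only regions alone (circles) and shared GFP only peaks (squares) in the same bins. The share declines from left to right, and members are narrower in each bin.

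Members were narrow. Their median width was 271 bp, with quartiles of 221 and 348 bp, against 371 bp (274 and 516) in shared GFP only peaks. A width under 250 bp was found in 39.7% of members and 17.6% of shared peaks, and 3401 members had exactly 200 bp, the smallest width in the lists. Width rose with height up to 30, yet members were the narrower class at equal height too. Median widths were 239 against 260 bp below height 4, 304 against 368 bp from 6 to 8, and 540 against 654 bp from 20 to 30. The 5 members of height 30 or more had a median width of only 229 bp, against 731 bp in shared peaks. A wide peak meets a peak of another list more easily, so part of this follows from the way the members were chosen. Summits lay near the middle, at 0.488 of the width in the median for members and 0.490 for shared peaks. All members together covered 9.13 Mb.

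The 5 widest members were not the tallest. A pair of them lay on chromosome 3, at chr3:50748127-50749378 with 1252 bp, a fold of 9.55 and 50 reads (exact Poisson interval 37.1 to 65.9), and at chr3:50867568-50868746 with 1179 bp and 49 reads (36.2 to 64.8). Fold is the authors' linear ratio over the local background. The first lay 16378 bp and the second 9071 bp from the nearest peak of another list. The others were chr16:2273653-2274827, chr19:33786526-33787688 and chr8:27133628-27134789, at 1162 to 1175 bp wide, with 39, 35 and 85 reads.

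The expected background under each peak could be recovered too, and it separated the members further. It equals or exceeds the genome-wide value, and it is given here as a multiple of that value. Over all heights, 17.8% of members had a local background of 1.5 or more, against 26.4% of shared peaks. In each bin of height the order was the reverse. From height 6 to 8, 35.5% of members and 21.9% of shared peaks were above 1.5, and from height 10 to 15 these were 58.3% and 46.4%. A member of a given height therefore more often lay in a stretch with many reads around it. Only 58 members (0.192%) had a local background of 5 or more, against 1067 shared peaks (0.986%).

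The 20 tallest members, with 108 to 174 reads, fell into 2 kinds by that measure. In 6 of them the local background was 17.4 to 22.8 times the genome-wide value. These 6 were 201 to 258 bp wide and their folds were only 1.38 to 1.83. The tallest member of all, chr13:19157254-19157485, is of this kind. It had 174 reads (149 to 202), a height of 40.8 and a fold of 1.83. The nearest peaks of the double positive, mCherry only and double negative lists lay 413, 406 and 426 bp away, at heights of 47.9, 39.9 and 39.6. The next, chr8:35941857-35942081, had 159 reads (135 to 186), a fold of 1.63 and an mCherry only peak of height 41.0 at 547 bp. The other 4 were chr24:16166079-16166307, chr20:54327301-54327501, chr4:27898877-27899134 and chr7:54482641-54482865. They had 145, 142, 123 and 115 reads, and each had a peak of all 3 other lists within 2499 bp. The part of the surrounding reads in these 6 calls was not tested.

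The other 14 of the 20 were 380 to 796 bp wide, had folds of 3.13 to 12.7 and lay on 10 chromosomes. Their local backgrounds started at 1.81, and all were below 10. The tallest was chr1:60285642-60286437, 796 bp wide, with 152 reads (129 to 178) and a fold of 7.22. Peaks of all 3 other lists lay 2591 to 2629 bp away, at heights of 22.0 in double positive, 25.6 in mCherry only and 30.9 in double negative. Next came chr9:46671088-46671873, with 124 reads (103 to 148), a fold of 8.48 and other peaks at 1536 to 1593 bp. Those other peaks had heights of 11.8 in double positive, 15.3 in mCherry only and 15.9 in double negative. Both members thus lay within 2629 bp of peaks of all 3 other lists.

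Some of the 14 had weak neighbours in some or all of the other lists. At chr25:33857252-33858007, with 118 reads (97.7 to 141) and a fold of 9.33, the nearest double positive and mCherry only peaks had heights of 3.58 and 3.81 and lay 3697 and 3586 bp away. The double negative peak at 3533 bp was of height 20.4. At chr2:60061764-60062143, with 113 reads (93.1 to 136) and a fold of 8.86, the nearest peaks were over 4 kb away in each list and had heights of 4.41 in double positive, 9.87 in mCherry only and 3.58 in double negative. Chromosome 18 held 3 of the 14. The region chr18:14774795-14775388 had 115 reads (94.9 to 138) and a fold of 12.6, and no double positive or mCherry only peak lay within 32 kb of it. A double negative peak of height 3.14 lay at 2152 bp. The region chr18:16767419-16767825 had 110 reads (90.4 to 133) and the highest fold of the 20, 12.7, with an mCherry only peak of height 14.1 only 189 bp away. A double positive peak of height 14.6 lay at 218 bp and a double negative peak of height 3.14 at 355 bp. The third, chr18:49865044-49865711, had 110 reads and a fold of 5.56. Its nearest peaks had heights of 33.3 in double positive, 6.73 in mCherry only and 9.41 in double negative.

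The remaining 7 had 108 to 116 reads. They were chr21:5814111-5814613 and chr1:91923-92393, with folds of 6.28 and 6.94, and chr13:4025511-4025965, chr16:26915167-26915955 and chr6:6697122-6697852, with 111 reads each. The last 2 were chr1:592298-592771, with a fold of 3.13, and chr19:49832055-49832467, with a fold of 6.94. Around chr16:26915167-26915955 the nearest peaks were low in all 3 other lists, at heights of 5.51 in double positive, 7.18 in mCherry only and 4.70 in double negative.

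Ranked by fold in place of height, a choice made after the values were seen, other members led. The first was chr14:8855537-8856295, 759 bp wide, with a fold of 16.99, 104 reads and peaks of the other lists at 16330 to 16370 bp. Folds of 14.2 were reached by chr2:34844734-34845159 and chr15:13786340-13786973, with 74 reads (58.1 to 92.9) each and a local background equal to the genome-wide value. The region chr8:16828361-16829072 had a fold of 14.0 and 94 reads, with a double positive peak of height 8.54 at 265 bp. At chr16:41537469-41537923, with a fold of 13.8, the mCherry only list had no peak within 33 kb. A double positive peak of height 4.13 lay at 5367 bp and a double negative peak of height 4.70 at 20874 bp. None of these 5 was among the 20 tallest.

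**Figure D2:**
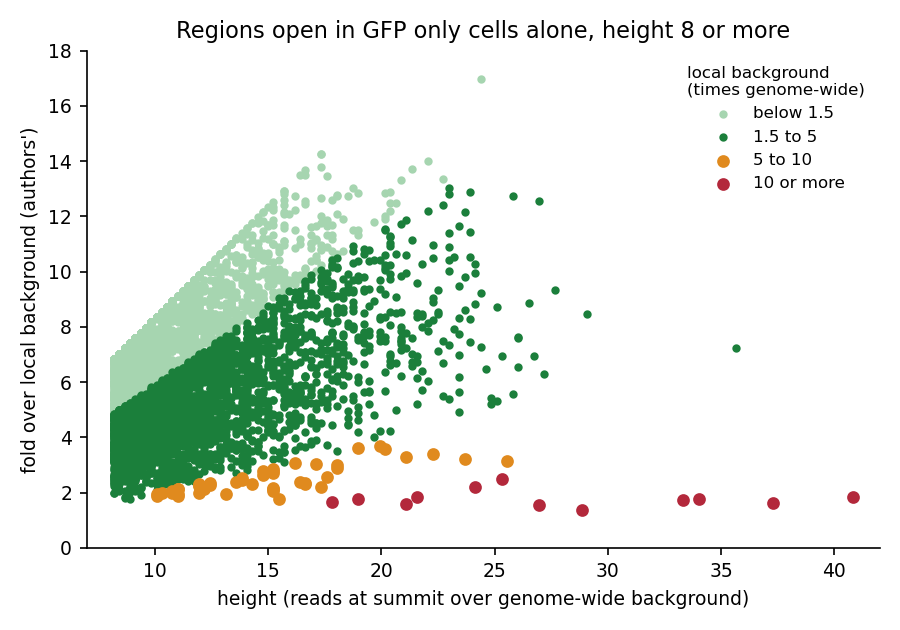
Each point is a GFP only region of height 8 or more, with height on the x axis, the authors' fold over local background on the y axis, and colour for the local background as a multiple of the genome-wide value. The 12 regions with a local background of 10 or more lie along the bottom, and 5 regions exceed height 30.

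Members mostly lay within a few kb of a peak that another fraction had. The median gap, from edge to edge, to the nearest peak of any other list was 2326 bp, with quartiles of 1054 and 4564.5 bp. A gap of 1 kb or less was found for 7247 members (24.0%), of 5 kb or less for 77.9% and of 10 kb or less for 94.0%. Only 269 members lay over 20 kb from any other peak and 3 over 50 kb. Gaps over 20 kb were thus rare, at 0.892% of members. In the classes of 1 other list alone the share ran from 0.348% (double positive) to 1.56% (double negative), each to 3 lists of other lengths. How far the number of peaks in the other lists sets these gaps was not tested.

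The nearest list was most often the longest one. Median gaps were 3056 bp to double negative, 3737 bp to mCherry only and 5707 bp to double positive peaks. The double negative list held the nearest peak for 51.7% of members, mCherry only for 33.6% and double positive for 15.9%, with ties of lists in 1.16%. Of all peaks of the 3 lists, 42.5% were double negative, 34.3% mCherry only and 23.2% double positive. Gaps over 20 kb numbered 3818 to double positive, 1575 to mCherry only and 828 to double negative peaks. The other classes of 1 list alone had median gaps of 1815 bp (double positive), 2127 bp (mCherry only) and 3028 bp (double negative), each to 3 lists of other lengths.

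Tall members were not farther from other peaks than low ones. The median gap to any list was 1963 bp for members of height 10 or more and 1753 bp at height 20 or more, against 2636 bp below height 4. To double positive peaks these medians were 3456, 2770 and 7692 bp. All 158 members of height 20 or more had a peak of another list within 20 kb, the farthest at 19907 bp.

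**Figure D3:**
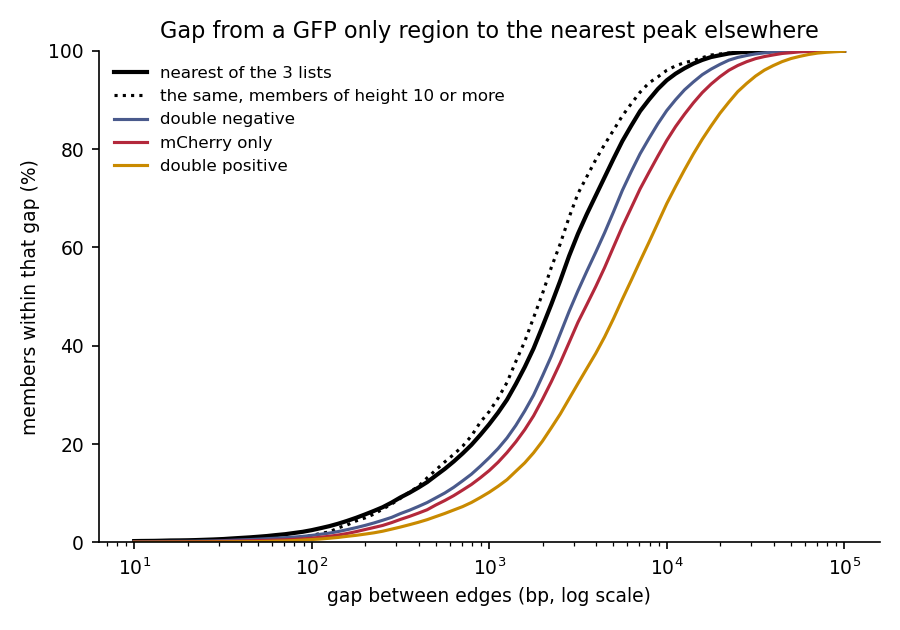
Share of GFP only regions (%) whose nearest peak in another list lies within the gap on the x axis (bp between edges, log scale), for the nearest of the 3 lists (black), for members of height 10 or more (dotted) and for each list. The curves order as double negative, mCherry only and double positive, with medians of 3056, 3737 and 5707 bp.

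The most isolated members of height 10 or more included 2 pairs of neighbours. On chromosome 3, chr3:51775982-51776309 and chr3:51776580-51776971 had 46 reads (33.7 to 61.4) and 51 reads (38.0 to 67.1) and lay 62347 and 61685 bp from the nearest peak of any other list. Their folds were 8.93 and 9.88 at a local background equal to the genome-wide value. On chromosome 18, chr18:26803251-26803565 and chr18:26804368-26804701 had 54 and 60 reads and lay 35230 and 34094 bp from other peaks. The fifth, chr24:8765266-8765663, had 45 reads and lay 35419 bp away.

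At the 1 bp limit of the choice, 350 members had another list's peak within 50 bp, and 506 GFP only peaks were left out for an overlap of 50 bp or less in all. Their median heights were 4.22 and 3.75, and their median widths 259.5 and 251 bp. Height 10 was reached by 14 just inside and 12 just outside. The tallest just inside was chr22:13258674-13259153, with 100 reads (81.4 to 122) and a double negative peak of height 13.2 at 47 bp. At chr5:75534333-75534718, with 83 reads, an mCherry only peak of height 15.5 lay 2 bp away. The next were chr17:28767179-28767585, chr16:25157415-25157914 and chr2:1620090-1620673, with 66, 64 and 60 reads and gaps of 41, 3 and 43 bp. Just outside, the tallest was chr21:9172979-9173323, with 63 reads (48.4 to 80.6) and 42 bp shared with a double negative peak of height 4.03. It was followed by chr1:52909692-52910164 and chr16:56251552-56251861, with 59 and 58 reads and 43 and 10 bp shared with double negative. The last of the 5, chr7:23958447-23958733 and chr4:28180819-28181069, had 52 and 51 reads and shared 33 and 42 bp with double negative peaks.

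Members tended to follow each other along the chromosomes. After a member, the next GFP only peak along the chromosome was again a member in 8314 of 30137 cases (27.6%, 27.1 to 28.1). After a shared peak it was a member in 20.2% (19.9 to 20.4). For members of height 10 or more the contrast was wider: 314 of 2765 (11.4%, 10.2 to 12.6) were followed by another such member, against 1.81% (1.74 to 1.88) of other GFP only peaks. The same order held in the other lists. A peak of a list alone was followed by another in 10.4% against 7.72% of cases for double positive, 17.1% against 12.2% for mCherry only and 41.1% against 26.2% for double negative. At height 10 or more these were 1.54% against 0.353% for double positive and 3.19% against 0.295% for mCherry only. For double negative they were 5.14% against 1.07%. The tall followers of tall peaks numbered 5, 13 and 95 in that order. At height 10 or more, the reference in each list was all of its other peaks, low ones included. Tall shared peaks were not taken as a reference of their own. How far tall peaks of any kind neighbour each other was not tested.

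Chained over gaps of at most 20 kb between summits, 4036 members (13.4%, 13.0 to 13.8) stood in 646 runs of 5 or more, on all 25 chromosomes. Of shared GFP only peaks, which are more numerous, 76.4% stood in runs of their own kind. In the classes of 1 other list alone, which differ in number, the shares were 0.209% for double positive, 4.18% for mCherry only and 45.4% for double negative. The median run held 6 members over 40.0 kb, 304 runs held exactly 5, and 40 held 10 or more. Members in runs were taller. Height 10 was reached by 799 of the 4036 (19.8%) against 1966 of the 26107 outside runs (7.53%), with median heights of 5.63 and 4.46. The gap to the nearest peak of another list was similar, at 2530 bp in the median within runs and 2298 bp outside them. At least 1 member of height 10 was in 375 runs, and 110 runs had 3 or more. Members made up 66.7% of the GFP only peaks in the median run, and in 68 runs they were the only GFP only peaks. Runs were chained from members alone and start and end at a member, so a high share follows in part from their definition.

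The run with the most members lay at chr1:52806516-52925190, where 26 of 34 GFP only peaks were members and 15 of them reached height 10. In these 119 kb the double positive list had 5 peaks, mCherry only 7 and double negative 9. The tallest member there, chr1:52915905-52916444, had 89 reads and a fold of 8.54. The peak chr1:52909692-52910164, left out above for 43 bp of overlap, also lies in this run. At chr3:27769240-27870976, 16 of 20 GFP only peaks were members, 9 of them of height 10 or more. The tallest had 92 reads and a fold of 9.61, and the double positive list had 3 peaks, mCherry only 10 and double negative 6. At chr19:8277768-8344037, 14 of 17 were members, with 1 double positive, 3 mCherry only and 3 double negative peaks in 66.3 kb. In these 3 runs GFP only had at least 2 times as many peaks as any other list. The runs were picked for their number of members, so part of this excess follows from the choice.

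In the other 2 of these 5 runs the double positive and double negative lists had more peaks than in those 3. At chr1:34190321-34329867, 17 of 32 GFP only peaks were members, and the other lists had 10 (double positive), 14 (mCherry only) and 16 (double negative). At chr9:22386683-22473446, 14 of 24 were members, beside 9, 10 and 10 peaks in the same order. Their tallest members had 79 and 89 reads. A further run at chr9:41890760-41980120 also held 14 members, and the longer span placed it after the 2 others of that number.

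**Figure D4:**
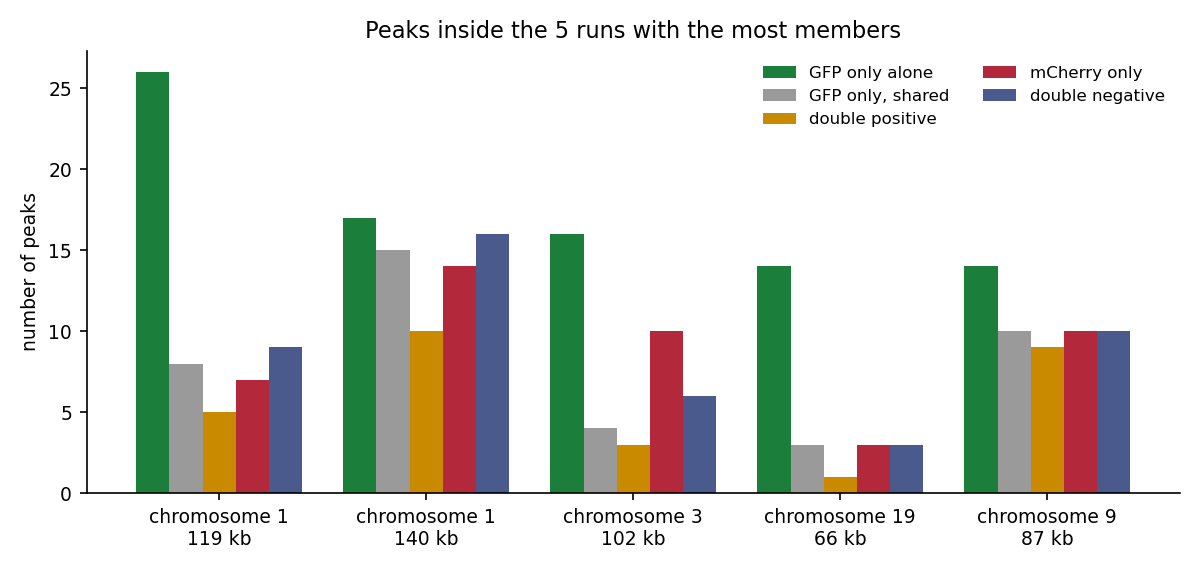
Number of peaks inside the 5 runs with the most members, ties settled by the shorter span, by chromosome and span in kb. Bars give GFP only regions alone, shared GFP only peaks, and the double positive, mCherry only and double negative peaks. Members are the most numerous kind in all 5, by the widest margin in the run of 26 on chromosome 1. Choosing runs by their number of members favours this order.

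In 15 of the 646 runs no other list had a peak within the span. The most members among these, 7 each, were in the runs at chr18:15369207-15384676 and chr7:62908121-62935290, with tallest members of height 18.1 and 20.2. A run of 6 at chr13:18374920-18395175 had 3 members of height 10 or more, the most among the 15. Of the 646 runs, 101 had no double positive peak, 53 no mCherry only peak and 42 no double negative peak. These numbers fall as the lists get longer, from 90687 double positive and 134260 mCherry only to 166282 double negative peaks. How far list length sets them was not tested.

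Chains made of members of height 10 or more alone gave 114 runs of 3 or more, with 415 members. The most, 9, lay in 39.5 kb at chr1:52879014-52918484, inside the run of 26. The 8 at chr25:35901993-35923506 lay in 21.5 kb and were taller, with a median height of 16.4 and up to 100 reads. Another 8 lay at chr20:34119036-34187880, with a median height of 11.4.

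Chromosomes differed little in the share of GFP only peaks that were members. It ranged between 19.7% on chromosome 18 (18.7 to 20.8) and 23.6% on chromosome 4 (22.6 to 24.6). There were 20.7 (chromosome 5) to 24.8 (chromosome 4) members per Mb, up to the last peak of each chromosome. Among GFP only peaks of height 10 or more, the member share was highest on chromosome 1, at 10.8% (9.28 to 12.5), and 6.69% to 6.70% on chromosomes 22 and 2. Each chromosome had 3 to 10 members of height 20 or more.

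Chromosome 4 differed on either side of 25 Mb. Beyond it, 998 of 3459 GFP only peaks were members (28.9%, 27.4 to 30.4), but only 21 of the 998 reached height 10. Up to 25 Mb, 542 of 3076 were members (17.6%, 16.3 to 19.0) and 67 of the 542 reached that height. The members beyond 25 Mb were thus many and low, and those up to 25 Mb fewer and taller. On the whole chromosome, 1169 of 6535 GFP only peaks reached height 10. That number was not split at 25 Mb, so whether the contrast in height is particular to members was not tested. Within 2 Mb of chromosome ends, as given by the first base and the last peak, 20.9% of GFP only peaks were members, against 21.9% elsewhere.

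**Figure D5:**
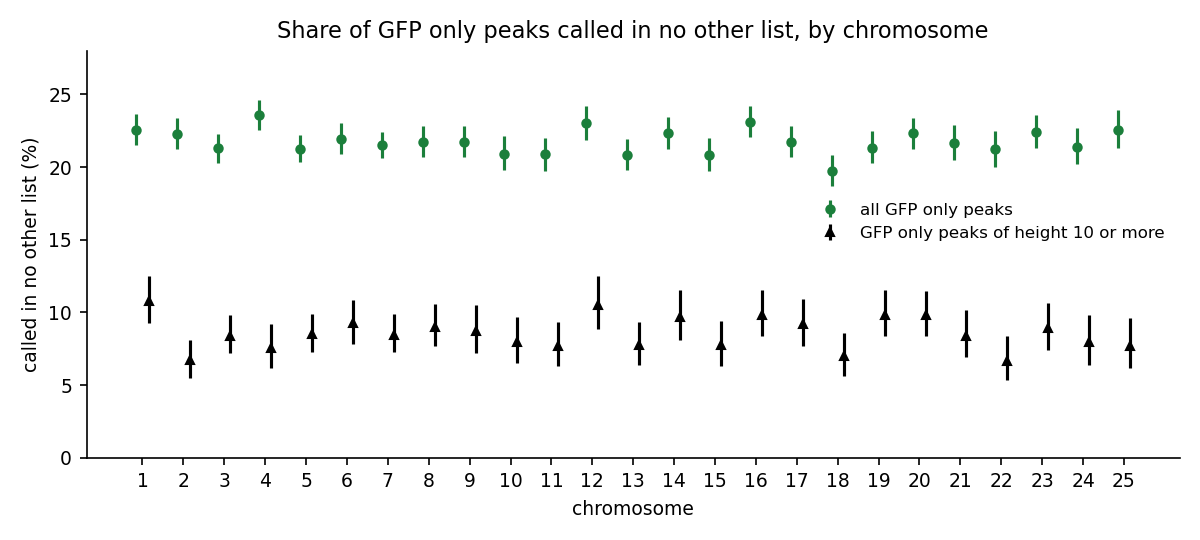
Share of GFP only peaks (%) called in no other list on each chromosome, for all peaks (circles) and for peaks of height 10 or more (triangles), with Wilson 95% intervals. All peaks stay between 19.7% and 23.6%, and chromosome 4 is highest for all peaks but not for the tall ones.

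In windows of 5 Mb the spread was wider. A window holds fewer peaks than a chromosome, so its share carries a larger counting error. How much of the wider spread this makes was not tested. Over 279 windows with at least 100 GFP only peaks, the member share had a median of 21.6% and ranged between 14.4% and 32.9%. The highest lay on chromosome 16 from 15 to 20 Mb, where 152 of 462 GFP only peaks were members (28.8 to 37.3) and 16 reached height 10. It was followed by 32.7% on chromosome 2 from 10 to 15 Mb, with 149 of 456 peaks, and by 32.4% on chromosome 14 from 10 to 15 Mb, with 121 of 374. The lowest was 14.4% on chromosome 22 within its first 5 Mb, with 83 of 577.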

How the data were processed

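The tools were MACS2 2.1.0 and Bowtie2 2.2.1, with the danRer7 genome build, per the submitters' processing notes. The caller settings, read filters, treatment of Tn5 offsets, pooling of samples and sequencing depth were not given in the sources used here. The lists the authors deposited hold, per peak, a display score (not used), a fold (linear ratio over background), −log10 p, −log10 q and a summit offset. Coordinates are printed 1-based.

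Reads and expected background at each summit were recovered as the whole number that gives both the deposited fold, with a pseudocount of 1, and −log10 p under a Poisson tail. The largest misfit of −log10 p was 0.000382, and the second-best number missed by at least 0.00808. This model is inferred from the values. A list's lowest expected background served as its genome-wide background. Overlap, gaps and runs were checked on simulated data. Python 3.11.15, numpy 2.4.6, pandas 2.3.3, scipy 1.17.1 and matplotlib 3.10.9 were used.

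Named are the 20 tallest members (ties by fold), the 5 widest, the 5 most isolated of height 10 or more, 5 on either side of the overlap limit and the 5 runs with the most members (ties by shorter span). The members and these rules were chosen with earlier results of these data known. Regions led by fold, runs without other peaks, tall runs and windows were chosen after the values were seen. The 2 mitochondrial GFP only peaks were left out.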

Additional observations from a re-analysis of the deposited data

How the results depend on the processing

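No paired analysis was possible because the lists pool the samples of a group, and for the same reason no replicate could be left out. Counts were taken as unmoved up to a factor of 1.5, medians and the share within 1 kb inside their 95% counting intervals. The 30143 members became 15177 when GFP only peaks needed a −log10 q of at least 5, with a median width of 306 bp, a median height of 6.10, 236 runs and 22.7% within 1 kb of another peak. With that threshold in every list, the median width was 319 bp, the median height 5.86, the runs 411, the median gap 3025 bp and the share within 1 kb 16.5%. Reciprocal overlap of 50%, under which overlapping peaks can be members, gave 1338 runs, a median gap of 1354 bp and 45.0% within 1 kb. Widening the other lists by 250 bp, which removes the nearest members, gave a median gap of 2532.5 bp and 18.2% within 1 kb. With lists of equal length (90689 peaks), the median width was 333 bp, the median height 6.33, the runs 395, the median gap 3126.5 bp and the share within 1 kb 15.1%. Runs numbered 175 with gaps of at most 10 kb and 2052 with 50 kb. The other 15 of the 37 values were unmoved by these wide limits. Among them, the members numbered 41622 with reciprocal overlap and 27996 with widened lists. They numbered 21432 with the threshold in every list and 20408 with lists of equal length. These settings start from fewer GFP only peaks than the 138364 of the main result. The threshold left 99042, of which 15177 were members when it was set on GFP only alone. Equal length left at most 90689. The lower member numbers are thus partly those of shorter lists. The number of members of height 10 or more stayed between 2579 and 4027 under all 5 settings on lists and overlap. Their share of members was less steady. It was 2742 of 15177 with the threshold on GFP only and 3476 of 21432 with it in every list. With lists of equal length it was 4027 of 20408, all larger shares than the 2765 of 30143 reported above. The threshold, on GFP only or in every list, and the cut to equal length each keep only GFP only peaks with high −log10 q or −log10 p. Low peaks are thereby removed by construction. The threshold in every list and the cut to equal length also shorten other lists, so GFP only peaks shared before can become members. How much each step moved the values was not tested. For the remaining changes the cause was not tested. The level of the other fractions in these regions was not analysed here.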
